A study of Mus musculus with 8 samples.

Results

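The CpGs described here are the most deeply covered ones in 8 libraries of mouse embryonic stem cells, made by reduced representation bisulfite sequencing (RRBS). They were chosen by their deposited coverage, not by their methylation. A CpG on chromosomes 1 to 19 was taken when it was listed in all 8 libraries and its coverage reached at least 5 times the median coverage of the same library in each of them. This left 720 of 616929 CpGs (0.117%), called deep CpGs below, and the remaining 616209 are the other CpGs. The cells, of strain 129/SvP, were plated at low density in medium with fetal bovine serum and leukaemia inhibitory factor (FBS/LIF), which keeps them undifferentiated. They received 1 mM L-proline together with 500 µM vitamin C, vitamin C alone, L-proline alone or neither, and were collected after 5 or 2 days, with 1 library per treatment and day. The labels name no clone, passage or culture, so libraries of the 2 days may come from one culture.

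RRBS sequences short fragments cut at CCGG sites, and bisulfite turns unmethylated cytosine into uracil, so a cytosine still read as C counts as methylated. The method does not separate 5-methylcytosine from 5-hydroxymethylcytosine. Vitamin C is a cofactor of the TET dioxygenases, which oxidise methylated cytosine, and L-proline is known to shift mouse embryonic stem cells towards a later, more primed state. Sequences that a genome holds in many near-identical copies, such as satellites, transposable elements and ribosomal RNA genes, are represented by few copies in an assembly, and reads of all copies can then pile up on those few. Methylation of transposable elements and satellites is known to restrain their transcription. No repeat annotation was used here, so membership of the deep CpGs in repeats was not tested, and they are named by position. Positions are those of the deposited files, which use build mm9.

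For a few clusters the sequence around the deep CpGs could be read without genome coordinates. The spacing of listed CpGs was laid over RefSeq promoters of build GRCm38.p6, which run from 250 bases before to 50 bases after a gene's start. A promoter was taken when at least 6 listed CpGs all fell on CG letters and at least 2 other promoters within 1 Mb were matched at the same offset. This held for 5 promoters, and the 3 with the most deep CpGs are shown because they carry distinct levels. Capitals mark the deep CpGs, and each sequence is on the strand of its gene. All 3 assignments rest on CpG spacing alone. Clcn4 encodes a chloride and proton exchanger (chr7:7299508-7299807, minus strand, 7 deep CpGs, 18 of 18 listed CpGs on CG letters). Of the 3 other promoters within 1 Mb that could be compared at its offset, 2 matched, while all did for the next 2 promoters. LOC115490388 is a predicted locus (chr6:3182866-3183165, plus strand, 3 deep CpGs, 7 of 7 listed CpGs on CG letters). Rab28 encodes a small GTPase (chr5:41708130-41708429, minus strand, 2 deep CpGs, 12 of 12 listed CpGs on CG letters).
Clcn4 promoter: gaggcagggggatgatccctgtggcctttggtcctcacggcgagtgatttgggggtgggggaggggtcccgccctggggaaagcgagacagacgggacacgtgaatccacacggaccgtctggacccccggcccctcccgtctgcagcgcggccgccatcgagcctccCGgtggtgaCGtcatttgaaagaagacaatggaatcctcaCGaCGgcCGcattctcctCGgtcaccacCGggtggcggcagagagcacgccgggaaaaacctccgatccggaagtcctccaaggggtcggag
LOC115490388 promoter: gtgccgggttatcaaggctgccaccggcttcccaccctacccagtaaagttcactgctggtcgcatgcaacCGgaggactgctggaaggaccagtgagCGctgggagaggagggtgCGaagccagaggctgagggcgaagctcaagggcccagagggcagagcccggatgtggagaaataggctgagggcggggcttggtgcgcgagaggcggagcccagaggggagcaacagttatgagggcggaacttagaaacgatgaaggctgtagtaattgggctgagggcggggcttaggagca
Rab28 promoter: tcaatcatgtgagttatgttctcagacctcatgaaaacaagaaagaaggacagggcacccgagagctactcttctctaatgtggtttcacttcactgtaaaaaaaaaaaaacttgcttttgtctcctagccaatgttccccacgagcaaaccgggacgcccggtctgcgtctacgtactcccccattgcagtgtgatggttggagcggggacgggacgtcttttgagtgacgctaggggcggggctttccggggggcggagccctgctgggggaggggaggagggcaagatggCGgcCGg

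The deep CpGs of the Clcn4 promoter, chr7:7252281-7252349 in the files, averaged 57.8% over the 8 libraries. They lay at 57.8% and 50.3% with vitamin C alone on day 5 and day 2, at 53.6% and 56.5% with both compounds, at 64.5% and 58.3% with L-proline alone and at 63.3% and 58.0% in untreated cells. The 4 libraries with vitamin C lay below the 4 without, by 6.46 ± 3.82 percentage points (SD of 4 matched pairs). At other CpGs of like methylation the same contrast gave -20.0 points. The LOC115490388 promoter, chr6:3132937-3132982 in the files, averaged 19.2%, with 7.37% and 9.30% under vitamin C alone on day 5 and day 2 and 14.5% and 14.6% under both compounds. It stood at 30.9% and 23.9% with L-proline alone and at 27.5% and 25.3% in untreated cells, so that the groups with and without vitamin C did not overlap (-15.5 ± 4.54 points). The Rab28 promoter, chr5:42099370-42099374 in the files, averaged 3.20% and ranged from 2.35% with vitamin C alone on day 5 to 4.10% with L-proline alone on day 2.

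Depth set these CpGs apart by rule, and is given as description. The median coverage of a library over its listed autosomal CpGs was 24 to 43 reads, total coverage varied 2.33-fold between libraries, and 748122 to 982146 autosomal CpGs were listed. Deep CpGs had a median coverage of 1322.5 to 3655.5 reads and took 6.65% to 8.81% of all autosomal coverage. Coverage was not a whole number at 13.5% to 24.3% of deep CpGs per library, against 0.456% to 0.953% of the other CpGs, and 397 of the 720 had whole coverage in all 8. At the threshold, 7 CpGs had a lowest ratio of exactly 5, among them chr1:88423930, chr3:79380145 and chr4:146817426. Just outside were chr3:33699181 at 4.88 and the neighbours chr12:20318608 and chr12:20318614 at 4.84 each. On the lambda contig, 0.195% to 0.513% of reads were methylated.

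Deep CpGs were clustered. Joined over gaps of at most 1 kb, they formed 82 clusters on all 19 autosomes, of which 13 held 1 CpG, 60 held 3 or more and the median held 4. Most were short: 64 clusters spanned 50 bp or less. The 7 clusters with the most members held 409 deep CpGs, and the largest alone held 306 (42.5%). Methylation divided the clusters. A mean under 5% was seen in 34 clusters with 504 deep CpGs, a mean of 20% to 80% in 40 clusters with 193, and 4 clusters each lay at 5% to 20% and at 80% or more. Of the 13 clusters whose members had a median lowest ratio of 50 or more, 12 had a mean under 5%.

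**Figure D1:**
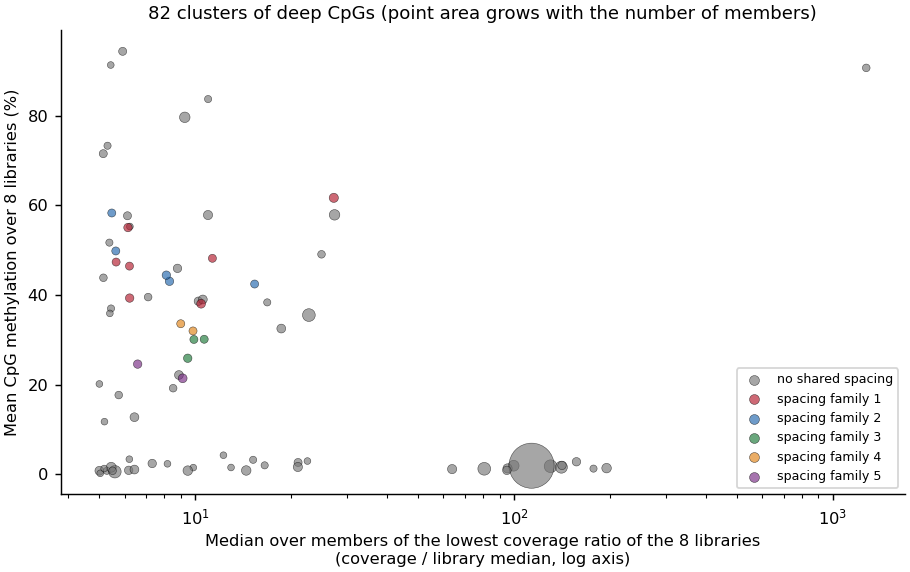
Mean methylation over the 8 libraries against coverage for the 82 clusters, where coverage is the median over members of the lowest ratio to the library median (log axis). Point area grows with the number of members, and colours mark the 19 clusters in 5 groups of shared CpG spacing. Clusters at a ratio of 50 or more lie under 5%, except the chromosome 2 cluster at the far right, at 90.6%.

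Neighbouring deep CpGs were more alike than clusters were, mostly because low and intermediate clusters stood apart. Among clusters of 3 or more members the SD of cluster means was 25.5 points and the median SD between members of a cluster 4.20 points. Among the 33 such clusters with a mean of 20% to 80%, the SD of means was 13.7 points and the median within-cluster SD 11.3 points. Set against the other CpGs, deep CpGs were as often under 5% (69.7% against 68.9%), although outside the largest cluster only 208 of 414 were. They were more often found at 20% to 40% (10.1% against 3.46%) and at 40% to 60% (7.50% against 3.604%). They were less often found at 80% to 95% (3.47% against 11.8%). These shares count neighbours that can share reads and were not tested. Within the class under 5%, deep CpGs averaged 1.52% and the other CpGs 0.762%.

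The cluster with the most members, chr17:39979959-39985654, spanned 5696 bp and held 374 CpGs listed in all libraries, 306 of them deep. The assembly is known to carry a copy of the 45S ribosomal RNA gene on chromosome 17, and whether this cluster is that copy was not tested. Its median coverage was 2898.5 to 7525.5 reads per library. The mean level was 1.89% and the median member 1.56%. Over pooled reads the level was lowest with vitamin C alone on day 5 (1.23%, 95% Wilson interval 1.21% to 1.25%) and highest with L-proline alone on day 5 (2.21%, 2.19% to 2.24%), intervals that cover counting error only. With vitamin C the mean of members was 1.69%, and without it 2.08% (-0.39 ± 0.21 points, against -0.70 points at CpGs of like methylation). The groups with and without vitamin C overlapped. Members averaged 1.84% and 1.88% with both compounds on day 5 and day 2, and 1.77% in untreated cells on day 5. Of the 306, 286 were lower with vitamin C, 69 of them in all 4 pairs. With L-proline the mean was 2.06%, and without it 1.71% (0.35 ± 0.30 points, against 0.34 points at CpGs of like methylation). With it 274 were higher, 109 in all 4 pairs. Such counts were not made for other CpGs of this level, and neighbours can share reads. The vitamin C and L-proline differences of this cluster are about as large as the spread between libraries on the lambda contig. There 0.195% to 0.513% of reads were methylated, and levels were not corrected for this.

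Only 12 of the 306 CpGs reached a mean of 5%, and 10 of these sat in 2 short groups. One group of 6 lay 1811 to 1835 bases from the first deep CpG. Its members averaged 4.98% to 7.22% with vitamin C and 8.43% to 10.9% without. The other group of 4 lay 3025 to 3049 bases from it and averaged 8.28% to 11.025% with vitamin C and 7.85% to 13.6% without. The remaining 2 were the CpG at 147 bases, at 15.4% with vitamin C and 16.2% without, and the CpG at 2592 bases, at 8.25% and 8.18%.

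**Figure D2:**
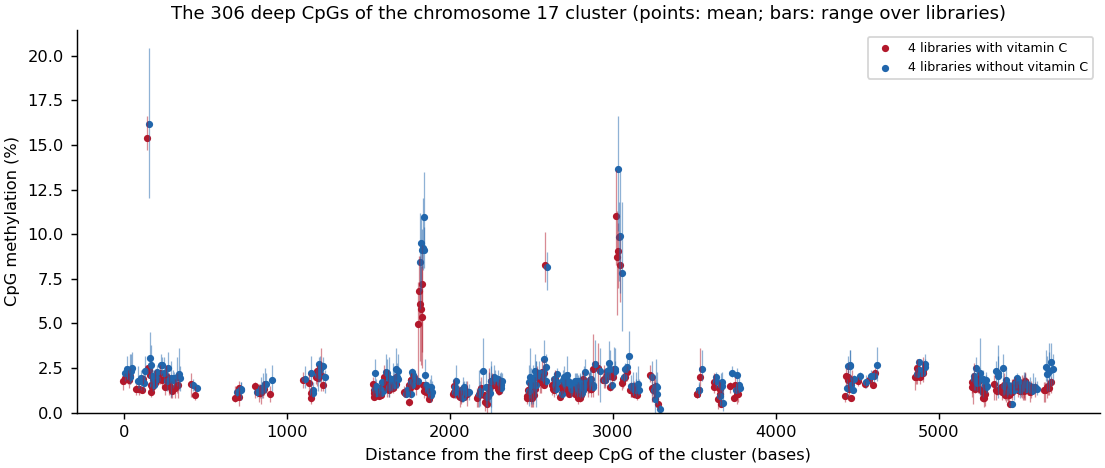
Methylation of the 306 deep CpGs of the chromosome 17 cluster by distance from its first deep CpG. Points are means and bars ranges over the 4 libraries with vitamin C (red) and the 4 without (blue, drawn a few bases to the right). Most CpGs lie near 1.56%, and the groups near 1811 and 3025 bases and single CpGs at 147 and 2592 bases stand above 5%.

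Of the other 9 clusters with the most members, 6 were about as low, and 3 stood between 35.5% and 79.6% and are described further on. The low ones were chr11:108873012-108873242 with 19 deep CpGs at 1.77%, chr17:36368220-36368427 with 19 at 1.20%, chr1:193220219-193220739 with 18 at 0.548%, chr16:11144143-11144214 with 16 at 1.55%, chr5:147072588-147072870 with 12 at 1.89% and chr4:146035178-146035227 with 9 at 1.54%. Mean differences with vitamin C in these 6 clusters were between -1.61 and -0.04 points. The 5 lowest clusters of 3 or more members had means of 0.548% to 0.820%. They were the chromosome 1 cluster just named, chr12:20202531-20202539, chr4:146817423-146817458, chr14:8077213-8077259 and chr8:20019855-20019900. Their libraries stayed between 0.20% and 2.90%. On the lambda contig 0.195% to 0.513% of reads were methylated, so the lowest of these values lie within that range.

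The deepest CpGs were methylated. At chr2:98506419, chr2:98506429 and chr2:98506660 coverage was at least 1252.7 times the library median in each library, and the cluster averaged 90.6%. Major satellite DNA, which packs into the heterochromatin beside mouse centromeres, is known to be heavily methylated, and whether this cluster is such a sequence was not tested. Levels were 89.1% and 88.6% with vitamin C alone on day 5 and day 2, 89.8% and 89.9% with both compounds, 93.9% and 92.1% with L-proline alone and 91.3% and 90.4% in untreated cells. All 4 libraries with vitamin C were below all 4 without, but by only -2.57 ± 1.04 points, against -5.89 points at CpGs of like methylation. The highest coverage in the 8 files was 65489 to 65509 reads although total coverage varied 2.33-fold. In 7 libraries all 3 CpGs were above 60000 reads, and in the untreated day 2 library 1 was. Whether their coverage was limited at that number was not tested. The next deepest CpGs, chr17:39985376 and chr17:39985392, lay in the large chromosome 17 cluster at 371 times the library median or more, with means of 1.41% and 1.20%.

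Further highly methylated clusters were chr12:20239959-20240015 with 4 deep CpGs at 94.3%, chr7:7230845-7230932 with 11 at 79.6%, chr2:40440373-40440418 with 4 at 71.5% and chr13:50116861-50116913 with 7 at 61.6%. The cluster chr7:89920168-89920514, with 11 deep CpGs, averaged 57.8%. Within-cluster spread was large in several, as at chr2:40440373-40440418, where single CpGs ran from 11.3% to 92.2%.

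A minority of the methylated clusters held one nearly unmethylated CpG at an end. Of 37 clusters with 3 or more deep CpGs and at least one of 20% or more, 10 also held exactly 1 CpG under 5%, at 0.475% to 3.48%, and the other members of those 10 were at 13.45% or more. In 9 of the 10 it was the first or last deep CpG, and each of these 9 clusters spanned exactly 46 bp. Of the 13 clusters among the 37 with that span, 9 had such an end CpG. At chr12:120250399-120250444 the first 3 CpGs averaged 58.5%, 69.6% and 57.0% and the last one 0.475%. The data do not tell whether the same reads cover them. The 8 values of the last CpG were 0.6% and 0.9% with vitamin C alone on day 5 and day 2, 0.0% and 0.7% with both compounds, 0.5% and 0.0% with L-proline alone and 0.6% and 0.5% in untreated cells. Whether these low values come from the cells or from library preparation was not tested, and the means and spreads of the 9 clusters include them.

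Several clusters on different chromosomes had the same CpG spacing. Of 43 clusters with 4 or more deep CpGs within 100 bp, 903 pairs were set against each other in both orientations. A pair was taken when at least 4 CpGs coincided, including all of the smaller cluster, with at most 1 CpG unmatched in a shared stretch of 30 bp or more. This held for 26 pairs, which joined 19 clusters with 89 deep CpGs into 5 spacing families. No chance rate was computed for these coincidences.

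The first family had 7 clusters on 6 chromosomes, the CpGs of which lay at 0, 7, 12, 16 and 45 bases or a subset, some with added ones. It contained chr1:97135099-97135144, chr7:58382123-58382168, chr9:55699483-55699528, chr12:120250399-120250444, chr13:50116861-50116913, chr13:87325336-87325381 and chr17:75297738-75297783, at 38.0% to 61.6%. The second had 5 clusters with CpGs at 0, 14, 18 and 39 bases, at chr4:53405691-53405730, chr5:58391836-58391875, chr10:68659763-68659810, chr12:43768167-43768206 and chr14:83698637-83698676, at 42.4% to 58.3%. The third had 3 clusters at chr4:49479435-49479482, chr12:91320275-91320322 and chr14:106706324-106706371, and their CpGs at 0, 37, 40 and 47 bases differed little between copies. They stood at 32.5% to 35.4%, 31.9% to 32.9%, 27.4% to 27.6% and 27.6% to 29.8%. The fourth joined chr1:133577328-133577366 (33.6%) and chr15:65889005-65889043 (31.9%), and the fifth chr11:13516429-13516474 (21.4%) and chr17:81753395-81753440 (24.6%).

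Members of a family could differ at one position. In the first family the CpG at 0 bases was at 75.96% on chromosome 9 and at 35.1% to 57.0% in 3 clusters, and under 5% in the other 3, where it was the end CpG described above. The CpG at 45 bases was 1.99% on chromosome 9 and 38.4% to 64.0% in the other 6 clusters. Vitamin C differences of the families were -19.6 to -9.68, -25.1 to -18.1, -21.2 to -18.3, -21.9 to -21.0 and -12.8 to -3.68 points in that order.

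**Figure D3:**
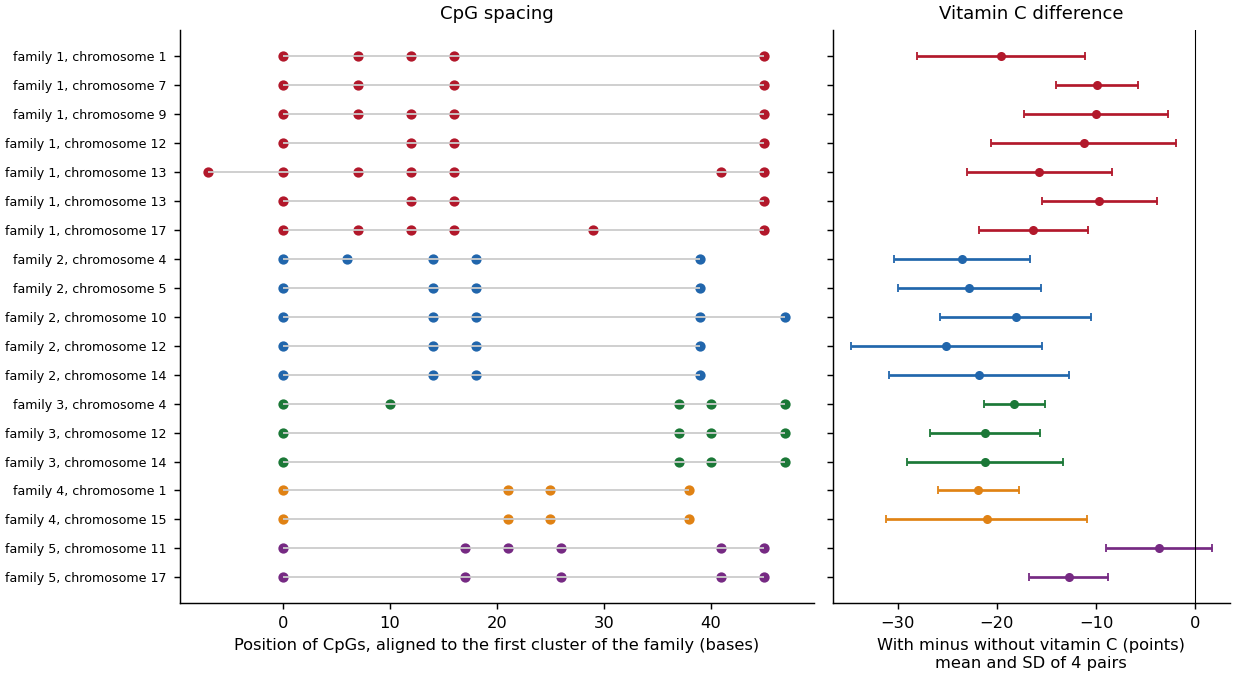
Left, CpG positions of the 19 clusters of the 5 spacing families, aligned to the first cluster of each family and turned round where the match was in the other orientation. Right, mean difference with minus without vitamin C of each cluster in percentage points, with the SD of 4 matched pairs; the differences run from -25.1 to -3.68 points, and one bar, of the chromosome 11 cluster of family 5, crosses 0.

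Deep CpGs were lower with vitamin C in all 4 pairs, and in each the difference was smaller in size than at other CpGs of like methylation. Deep CpGs averaged 12.9% and 11.5% on day 5 with vitamin C, in the presence and absence of L-proline, against 19.2% and 16.2% without vitamin C. On day 2 they averaged 13.7% and 12.3% with it, against 16.9% and 14.95% without it. The 4 differences of -6.28, -4.72, -3.18 and -2.63 points averaged -4.20 ± 1.64 points (exact two-sided sign-flip test, p = 0.125, the smallest that 4 pairs allow). The same pairs gave -8.21, -6.60, -3.80 and -2.71 points at other CpGs weighted to the same classes of methylation. The gap between deep CpGs and CpGs of like methylation was positive in 4 of 4 pairs, at 1.13 ± 0.92 points (exact sign-flip test, p = 0.125), and at day 2 without L-proline it was 0.08 points. Over pooled reads, where the deepest CpGs weigh most, the vitamin C difference was -0.75 ± 1.66 points (exact sign-flip test, p = 0.5). On day 5 with L-proline the pooled level was higher with vitamin C (14.4% against 13.2%). In that pair the deepest chromosome 2 cluster was lower with vitamin C (89.8% against 93.9%). So was the chromosome 17 cluster over pooled reads (1.63% against 2.21%). Each chromosome 2 CpG had 64415 to 65489 reads with vitamin C and 64581 to 65509 without. All deep CpGs had 1550462 and 2111515 reads. Pooled without the CpGs above 60000 reads the vitamin C difference was -0.99 ± 0.37 points. Counting each cluster once left a gap of 1.33 ± 1.44 points (exact sign-flip test, p = 0.25).

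**Figure D4:**
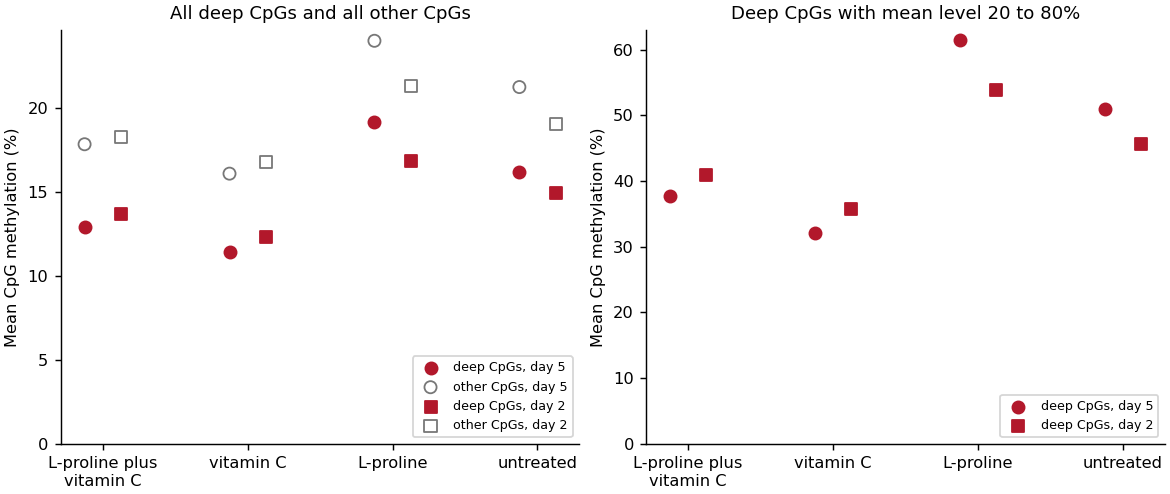
Mean CpG methylation in each of the 8 libraries, for all deep CpGs (red) and all other CpGs (open grey) at left, and for the deep CpGs with a mean of 20% to 80% at right. Each point is 1 library, day 5 as circles and day 2 as squares, with the 2 treatments holding vitamin C at the left of each panel and untreated cells at the right. All red points with vitamin C (11.5% to 13.7%) lie below all red points without it (14.95% to 19.2%).

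Nearly all of this difference came from the 204 deep CpGs of 49 clusters with a mean of 10% or more, a cut chosen after seeing the data. They averaged 41.4% and 37.1% on day 5 with vitamin C, with and without L-proline, against 61.7% and 52.9% in its absence, and 44.3% and 39.9% on day 2, against 55.0% and 48.3%. The mean difference was -13.8 ± 5.33 points, and the gap to CpGs of like methylation 3.47 ± 2.81 points. By class, deep CpGs differed by -17.1 ± 6.30 points at 20% to 40%, -17.4 ± 6.36 points at 40% to 60%, -12.6 ± 5.85 points at 60% to 80% and -4.51 ± 2.13 points at 80% to 95%. CpGs of like methylation gave -19.4, -19.7, -18.8 and -7.84 points in the same classes. The gap was positive in 4 of 4 pairs at 60% to 80% and at 80% to 95% (exact p = 0.125 each), and in 3 of 4 at 20% to 40% and 40% to 60% (exact p = 0.375 each).

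**Figure D5:**
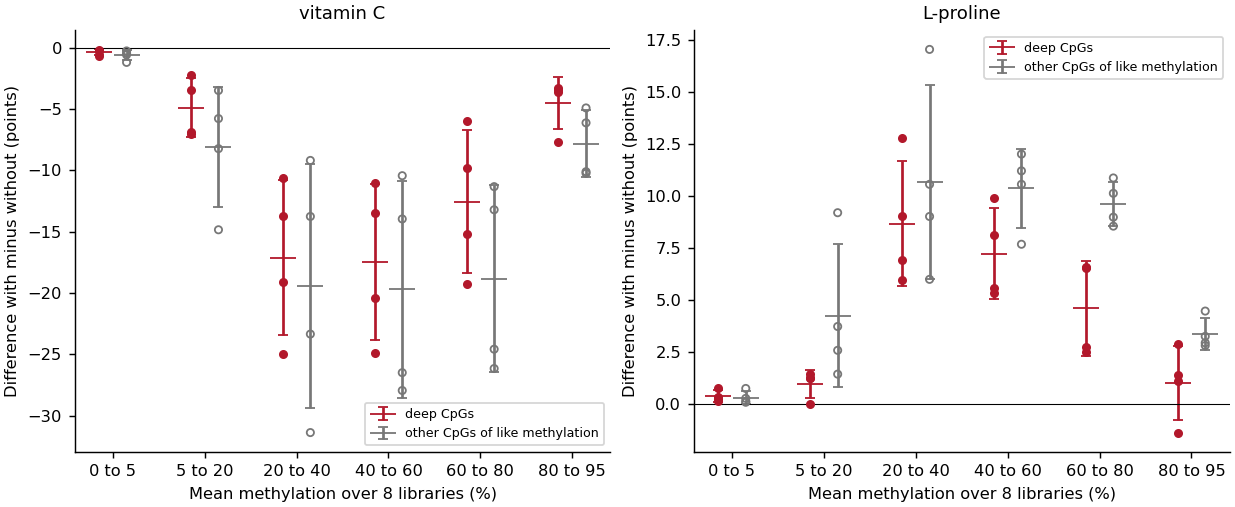
Differences with minus without vitamin C (left) and L-proline (right) in percentage points, by class of mean methylation. Red, deep CpGs; grey, other CpGs of like methylation; points are the 4 matched pairs, and horizontal marks and bars their mean and SD. Vitamin C differences of deep CpGs reach -17.1 and -17.4 points in the classes from 20% to 60%, and their spread overlaps that of the grey points there.

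Lower levels with vitamin C ran through the clusters of intermediate level but differed in size. In all 38 clusters with 3 or more deep CpGs and a mean of 10% or more the level was lower with vitamin C, in 37 of them in all 4 pairs. The same held for 97.9% of 27137 clusters of the other CpGs built in the same way, for 66.4% of them in all 4 pairs, at lower depth. The largest difference was at chr6:144953008-144953052, with 16.7% and 29.0% under vitamin C alone on day 5 and day 2 and 23.2% and 35.0% under both compounds. There L-proline alone gave 57.3% and 54.8% and untreated cells 58.4% and 41.6%, a mean difference of -27.0 ± 13.2 points. At chr12:43768167-43768206 the 4 libraries with vitamin C stood at 29.3% to 43.7% and the 4 without at 53.9% to 75.2% (-25.1 ± 9.62 points). At chr4:53405691-53405730 they stood at 27.3% to 35.1% and 46% to 64.7% (-23.5 ± 6.90 points). In the same order, chr5:58391836-58391875 gave 25% to 36.3% and 43.1% to 64.1% (-22.8 ± 7.21 points) and chr1:133577328-133577366 gave 16.7% to 26.3% and 38.4% to 53.0% (-21.9 ± 4.08 points). In none of these 5 clusters, which were picked for their size of difference, did the groups overlap, nor did they in 32 of the 38, against 34.5% of the clusters of other CpGs. Of the 5, 4 belong to spacing families.

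The smallest differences were found mainly at high level. They were -2.06 ± 1.81 points at chr12:20239959-20240015, -2.57 points at the deepest chromosome 2 cluster, -2.96 ± 3.05 points at chr2:40440373-40440418 and -3.62 ± 2.00 points at chr7:7230845-7230932. The chr11:13516429-13516474 cluster of the fifth family is the exception, since it averaged 21.4% and had 18.0% and 21.7% with vitamin C alone on day 5 and day 2 and 18.1% and 20.5% with both compounds. Its values were 26.5% and 23.6% with L-proline alone and 24.8% and 18.0% in untreated cells, so that the groups overlapped (-3.68 ± 5.34 points, against -15.03 points at CpGs of like methylation). At chr7:89920168-89920514, at 57.8%, the difference was -4.62 ± 2.20 points, against -17.2 points at CpGs of like methylation. In 25 of the 38 clusters the loss was smaller than that of CpGs of like methylation.

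The limma fit per CpG over all 616929 CpGs called 90 of the 720 deep CpGs lower with vitamin C (12.5%), with 0.05 as the limit of the adjusted p and 10 points as the smallest difference. None was higher, and at an unadjusted p under 0.05 there were 211 lower and 2 higher, against 18.9% of all CpGs in either direction. Among all CpGs tested 5.34% were called lower and 0.00162% higher. The 10-point minimum allows no call at a mean under 5%, where 502 of the deep CpGs lay. With no minimum difference, 104 deep CpGs and 36608 of all CpGs were called lower. The 90 calls at 10 points were all among the 204 deep CpGs with a mean of 10% or more. Of these 44.1% were called, against 17.4% of the other CpGs of that range. At 20% to 40% the shares were 68.5% of deep and 27.7% of other CpGs, and at 80% to 95% they were 8% and 9.31%. The median log2 difference at 20% to 80% was smaller in size in deep CpGs, -1.14 against -1.30, beside a depth that differs by rule. With no trend on coverage in the fit, 31 deep CpGs were called lower, against 90 with it. Over all CpGs 32968 were then called lower, against 32917. At an unadjusted p under 0.05 this fit gave 148 deep CpGs lower and 1 higher, against 18.8% of all CpGs in either direction. The part of depth in the shares above was not tested. The 90 calls lay in 31 clusters, 10 of which had all members called, among them clusters of only 1 and 2 deep CpGs. Of the 89 deep CpGs in spacing families 54 were called, beside 83 of all 157 deep CpGs at 20% to 80%. The lowest adjusted p was 0.00957, at a CpG of chr11:3093351-3093630.

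Calls among deep and all CpGs alike depended on single libraries. Without the library of both compounds on day 5 no deep CpG and no other CpG was called. Deep CpGs called and all CpGs called lower numbered 10 and 5113 without the library of both compounds on day 2, 20 and 8499 without untreated day 5, 28 and 13159 without vitamin C day 5, and 39 and 16390 without L-proline day 5, against 90 and 32917 with all libraries. The median log2 difference over all CpGs was -0.25 and that of the deep CpGs -0.35, and with each library centred to one median neither a deep nor any other CpG was called in limma (smallest adjusted p among deep CpGs = 0.0776). At an unadjusted p under 0.05, 140 deep CpGs were then lower and 3 higher, against 15.5% of all CpGs in either direction.

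Fisher's exact test between the 2 libraries of a pair, called at 20 points or more and an adjusted p under 0.05, compares libraries and covers counting error only. On day 5 it called 115 deep CpGs lower with vitamin C in the presence of L-proline (5.70% of all CpGs) and 78 in its absence (2.98% of all), and none higher (0.0113% and 0.00421% of all). On day 2 it called 25 in the presence (0.610% of all) and 11 in the absence of L-proline (0.489% of all), with 1 higher in its absence (0.0266% of all). Of the 157 deep CpGs at 20% to 80%, 70.7% and 49.0% were called lower on day 5, against 29.1% and 18.0% of the other CpGs of that range. With reads of every CpG thinned to at most the library median, these shares were 11.5% and 3.82% of deep CpGs, against 21.0% and 11.4% of the others.

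Deep CpGs were higher with L-proline in all 4 pairs, again with a smaller difference than at CpGs of like methylation. The differences were 3.004 points on day 5 and 1.93 points on day 2 without vitamin C, and 1.45 and 1.39 points with it. Their mean was 1.94 ± 0.75 points (exact sign-flip test, p = 0.125). The gap to CpGs of like methylation was negative in 4 of 4 pairs, at -0.84 ± 0.30 points (exact p = 0.125), and -3.06 ± 0.98 points over the 204 deep CpGs at 10% or more. By class, L-proline gave 8.66 ± 3.02 points at 20% to 40%, 7.22 ± 2.17 points at 40% to 60% and 4.58 ± 2.27 points at 60% to 80%, against 10.6, 10.4 and 9.62 points at CpGs of like methylation. In each class from 5% to 95% the gap was negative in 4 of 4 pairs. Under 5%, where 502 of the deep CpGs lay, the rise was not smaller. There it was 0.36 ± 0.28 points against 0.30 points, with a positive gap in 3 of 4 pairs. Levels on the lambda contig ranged from 0.195% to 0.513% between libraries.

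Of the 38 clusters, 37 were higher with L-proline, 26 in all 4 pairs, against 89.3% and 39.0% of the clusters of other CpGs, at lower depth. In none of the 38 did all libraries with L-proline lie above all those without, against 1.75% of the clusters of other CpGs. The largest difference was at chr11:3093351-3093630, a cluster of 19 deep CpGs averaging 35.5%. It had 55.7% and 45.1% with L-proline alone on day 5 and day 2 and 28.5% and 36.6% with both compounds. It had 22.1% and 24.6% with vitamin C alone and 36.5% and 34.7% in untreated cells, a mean difference of 12.04 ± 5.33 points that exceeded the 10.3 points of CpGs of like methylation. The same cluster differed by -15.1 ± 8.44 points with vitamin C, and 10 of its 19 CpGs were called. Next came chr16:22928866-22928889 at 10.3 ± 3.32 points and chr12:43768167-43768206 at 9.84 ± 4.18 points. The lowest differences were -0.17 ± 3.20 points at chr2:40440373-40440418, 0.04 ± 1.51 points at chr12:20239959-20240015 and 0.88 ± 4.23 points at the Clcn4 promoter.

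No deep CpG passed the limma test for L-proline (smallest adjusted p = 0.201), and 0% of all CpGs did. At an unadjusted p under 0.05, 156 deep CpGs were higher and 12 lower, against 8.39% of all CpGs in either direction. With no trend on coverage in the fit, 34 were higher and 4 lower, against 8.33% of all CpGs. The part of depth in these counts was not tested. Fisher's test called 19 deep CpGs higher with L-proline on day 5 without vitamin C (0.721% of all CpGs) and 1 with it (0.0882% of all), and none lower (0.00778% and 0.00389% of all). On day 2 it called 2 higher (0.0960% of all) and none lower (0.000973% of all) without vitamin C, and 4 higher (0.320% of all) and 2 lower (0.0336% of all) with it.

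Day had no common direction. The level was 2.30 points higher on day 5 with L-proline alone (19.2% on day 5 and 16.9% on day 2) and 1.23 points higher in untreated cells (16.2% and 14.95%). It was 0.86 points lower with vitamin C alone (11.5% on day 5 and 12.3% on day 2) and 0.80 points lower with both compounds (12.9% and 13.7%). The mean was 0.46 ± 1.56 points (exact sign-flip test, p = 0.625) and turned to -0.15 points without the L-proline pair. The gap to CpGs of like methylation was -1.05 ± 0.93 points (exact p = 0.25). It came mainly from untreated cells and L-proline alone, where CpGs of like methylation were 3.01 and 4.16 points higher on day 5.

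Of the 38 clusters 27 were higher and 11 lower on day 5, and 1 and 2 of these in all 4 pairs. The largest losses were -3.86 ± 5.86 points at chr10:103124210-103124255, -3.13 ± 5.74 points at chr12:120250399-120250444 and -1.41 ± 4.12 points at chr4:49479435-49479482. The largest gains were 5.91 ± 6.05 points at chr13:50116861-50116913, 5.73 ± 10.3 points at chr1:172993917-172993960 and 5.44 ± 7.25 points at chr5:58391836-58391875. Each of these SDs was larger than its mean. At chr1:172993917-172993960 day 5 stood at 43.6% against 28.2% on day 2 with L-proline alone and at 10.3% against 16.9% with vitamin C alone.

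No deep CpG passed the limma test for day (smallest adjusted p = 0.366), and 0% of all CpGs did. At an unadjusted p under 0.05, 34 were higher and 4 lower on day 5, against 10.7% of all CpGs in either direction. Fisher's test called 2 deep CpGs higher on day 5 with L-proline alone (0.893% of all CpGs) and 1 in untreated cells (0.122% of all), and 1 lower each with vitamin C alone (0.0744% of all) and with both compounds (0.0112% of all). None was lower with L-proline alone (0.00908% of all) or in untreated cells (0.00162% of all), and none higher with vitamin C alone (0.0313% of all) or both compounds (0.006% of all).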

How the data were processed

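RRBS was measured in 8 libraries, 1 per treatment and day. The authors deposited, for each CpG, the fraction of reads methylated (0 to 1) and a coverage, with a minimum of 10 reads. The submitters' processing notes name CASAVA, BSMAP 2.88 and build mm9; their roles, the handling of reads with several matches and of duplicates, and why some coverages are not whole numbers are not given in the sources used here. Methylated reads were taken as coverage times the deposited fraction, rounded. Levels are means of CpG percentages unless pooled reads are named.

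Deep CpGs were chosen by coverage, and the members, lists and tests were chosen with earlier results of these data known. Clusters joined deep CpGs over gaps of at most 1 kb. For each factor, 4 matched pairs sharing the other 2 factors were formed. The mean and SD of the pairs come with an exact two-sided sign-flip test, whose 16 sign assignments allow no p below 0.125. CpGs of like methylation are the other CpGs in 10-point classes of the mean over 8 libraries, averaged with the class weights of the deep CpGs. limma 3.58.1 was fitted to log2((methylated + 1)/(unmethylated + 1)) of all 616929 CpGs with day, L-proline and vitamin C as additive terms, 4 residual degrees of freedom and a prior variance that follows coverage. Calls needed a Benjamini-Hochberg adjusted p under 0.05 over all CpGs and 10 points. Fisher's exact test compared the libraries of a pair, adjusted within it. The limma fit, the Fisher test and the class weighting were tested on simulated data.

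Named clusters are the 10 with the most deep CpGs. Among those with 3 or more, the 5 highest and 5 lowest are named, and at a mean of 10% or more also the 5 largest losses and gains with vitamin C and 3 each with L-proline and day. The 5 deepest CpGs and 3 on each side of the threshold are also named. Where no cluster gained, the smallest losses took the place of gains. Clusters of other CpGs for the counts of direction were joined in the same way. Spacing families, promoter matches, the low end CpGs and the higher CpGs of the chromosome 17 cluster were described after their values were seen. With 1 library per group, the spread between pairs holds differences in effect as well as noise, and no label ties libraries to separate cultures. Reads carry no molecular identifiers and may be PCR copies, so intervals and Fisher's test reflect counting error alone. Alternatives changed the depth threshold, the median, the averaging, the comparison CpGs, the limma settings and the libraries. Python 3.11.15, numpy 2.4.6, pandas 2.3.3, scipy 1.17.1 and R 4.3.3 were used.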

Additional observations from a re-analysis of the deposited data

Results flagged for a closer look

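The day difference of the deep CpGs ran in opposite directions with and without vitamin C. It averaged -0.83 points in the 2 pairs with vitamin C and 1.76 points in the 2 without, a difference of -2.60 points (exact permutation test over 6 groupings, p = 0.333, the smallest it allows for 2 against 2). CpGs of like methylation had the same directions. They gave -0.88 points with vitamin C alone and -0.24 points with both compounds, and 3.01 points in untreated cells and 4.16 points with L-proline alone.

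The depth rule also found CpGs outside chromosomes 1 to 19, which no comparison used. Of 6528 CpGs listed there in all 8 libraries, 32 passed. The X chromosome held 14, at a mean of 57.2% (55.6% with vitamin C and 58.8% without). The mitochondrial genome held 10, at 0.446%. The unplaced contig group held 5 within chrUn_random:1752608-1752652, at 19.2% with vitamin C and 35.2% without (-16.0 points). The unplaced Y contig held 3, at 58.0% with vitamin C and 63.1% without.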

How the results depend on the processing

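Vitamin C differences and gaps of the deep CpGs kept their sign under all 19 and 24 alternatives run, but not their size: the difference was -2.36 points at 10 times the median, -8.13 points with each cluster counted once and -0.748 points over pooled reads (exact p = 0.5), against -4.20 points. Leaving out each library with its pair gave -4.73 to -3.51 points for vitamin C (gap 0.858 to 1.48), 1.59 to 2.13 points for L-proline (gap -0.987 to -0.775) and -0.147 to 0.907 points for day (gap -1.40 to -0.775). Either library of a pair takes out the same pair, so these 8 runs give 4 distinct results per factor. For vitamin C and L-proline all 4 pairs share a sign in difference and in gap, so these runs could not reverse it. Over pooled reads the L-proline difference was 0.455 points, the day difference 3.65 points, and the day gap reversed to 3.22 points. Pooling reads and also dropping the CpGs above 60000 reads gave a day gap of -0.416 points, and the L-proline gap reversed to 0.0179 points; dropping those CpGs alone reversed neither (-1.05 and -0.840 points). Alternatives that drop those CpGs or keep means of 10% or more were added after seeing the data. The cause was not tested. limma calls lower with vitamin C numbered 90 among the 720 deep CpGs and 32917 among all 616929 CpGs. In the same order they were 49 and 22638 at 20 points, and 31 and 32968 with no trend on coverage. With a pseudocount of 0.5 reads they were 8 and 10146, and with libraries centred 0 and 0. Leaving out each library gave 0 to 103 among deep CpGs and 0 to 40689 among all. For L-proline and day, calls were 0 throughout. Fisher calls, added over the 4 pairs of each factor so that a CpG can count more than once, numbered 230 (vitamin C), 28 (L-proline) and 5 (day). At 10 points they were 433, 129 and 73, and with reads thinned to the library median 25, 1 and 0, where fewer reads are tested. The vitamin C pair with the most was day 5 with L-proline. At 10 points it had 148 deep CpGs lower and 1 higher (5.89% and 0.0128% of all CpGs). Thinned, it had 18 lower and 0 higher (3.73% and 0.00551% of all). No paired analysis was possible because each group has 1 library and the labels give no replicate numbers to serve as a block; the matched pairs share the other factors, and whether they share a culture is not given.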
